A study of Mus musculus with 6 samples.

Results

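A gene that encodes a protein is often annotated with further transcripts that carry no complete reading frame, and Ensembl files these under the biotype "processed transcript". They share exons with the coding messenger RNA, start or stop elsewhere, or keep part of an intron, and most have no assigned function. Exosomes, the small vesicles that cells release, carry messenger RNA and non-coding RNA in addition to protein. The account below takes the 200 most abundant of these processed transcripts in dendritic cell exosomes, one by one, beside the coding transcripts of the same gene. They were chosen by level: of 4120 processed transcripts whose gene also had a protein-coding transcript among the 27544 transcripts listed, the 200 with the highest mean FPKM over all 6 libraries were kept. FPKM is a count of sequenced fragments divided by transcript length and by library size, so levels can be set side by side between transcripts. The 200 belonged to 172 genes of the 11275 with a coding transcript. As the mean level chose them, their levels and shares are a description, and only differences between the groups of libraries were tested.

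All 6 libraries came from exosomes of bone marrow-derived dendritic cells of C57BL/6 mice. Marrow progenitors were grown until day 7 in medium depleted of vesicles, with GM-CSF at 20 ng/ml and IL-4 at 10 ng/ml. Cells then received lipopolysaccharide at 5 µg/ml, a bacterial wall component that matures dendritic cells, or PBS for 24 h, were washed and were kept for another 48 h, after which exosomes were taken from the medium by differential ultracentrifugation. The immature group (3 libraries) and the mature group (3 libraries) are named in the sample titles, while a treatment tag reads untreated in all 6, so the arm of each group rests on its title. Neither separate cultures nor separate mice are named for the libraries of a group, so a p-value here compares a difference with a spread between samples that may be technical. Vesicles made by other cells of the culture were not removed by any step that the labels describe. Within a bulk sample, fewer vesicles from one cell type and less RNA per vesicle cannot be told apart.

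All 10 dendritic cell markers examined, Cd74, Itgax, Flt3 and Ccr7 among them, were listed, with summed levels of 1762 to 2324 FPKM in immature and 3124 to 4873 in mature libraries. Neutrophil markers reached 178 to 1173 and 216 to 1061 FPKM, erythroid markers 11.3 to 353 and 15.5 to 197, and mast cell and basophil markers 5.52 to 14.9 and 29.4 to 61.2; their part in the results was not tested. Among the libraries, immature 2 and mature 1 differed from the rest. They held 10912 and 12924 transcripts at 0.5 FPKM or more, against 15432 to 18775 in the others, and mitochondrially encoded transcripts took 2.55% and 0.940% of their summed FPKM against 0.0696% to 0.282%. The table gives no read totals, so the depth behind a value is unknown.

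The 200 fell steeply in level, from a mean of 1572 FPKM to 3.81, with a median of 6.69. At the lower edge, the processed transcripts of Mrpl14 and Vps13d were the last inside, both at 3.81 FPKM, and Atp5g3-205 and Eif4a3-203 the first outside, at 3.79 and 3.78. Of the 200, 112 reached 0.5 FPKM in all 6 libraries and 134 were listed at 0 in none. Immature library 2 listed 42 of them at 0, and mature library 2 only 6. A mean can rest on 1 library: Vps13d-207, from a gene of lipid transfer and mitochondrial clearance, stood at 17.6 FPKM in immature library 1, at 5.27 in mature library 3 and at 0 in the other 4. Of the 200, 166 were also among the 200 with the highest median.

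Together they held 2.88%, 1.88% and 3.22% of the summed FPKM of immature libraries 1, 2 and 3, and 1.82%, 2.25% and 1.81% of mature libraries 1, 2 and 3. The groups overlapped, through immature library 2. The means were 2.66% ± 0.694 (SD, n = 3) and 1.96% ± 0.254 (SD, n = 3), a difference of -0.70 percentage points with a 2-sided exact permutation p of 0.2, where 3 libraries against 3 cannot go below 0.1. Much of the sum was 1 transcript. Without Chd9-206 the shares were 1.74% ± 0.0815 (SD, n = 3) and 1.38% ± 0.180 (SD, n = 3), the groups no longer overlapped and the exact p was 0.1, the smallest possible.

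**Figure D1:**
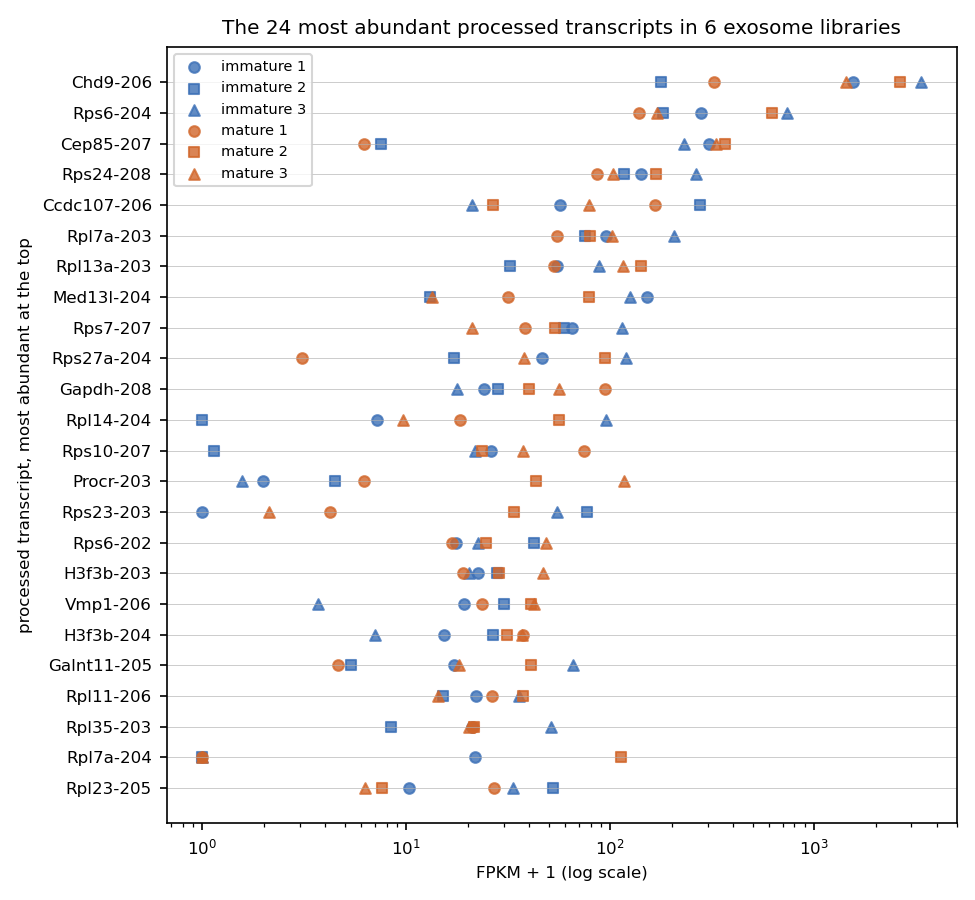
Level of the 24 most abundant processed transcripts, as FPKM + 1 on a log axis, with 1 point per library (blue immature, orange mature). Chd9-206 lies far above the rest in 4 libraries, Cep85-207 drops to 6.53 and 5.21 FPKM in immature library 2 and mature library 1, and within most rows the colours are mixed.

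Chd9-206 was the most abundant processed transcript by a wide margin. Chd9 encodes a chromatin remodelling helicase. The transcript (chr8:90828827-90891521, plus strand, GRCm38) had levels of 1547, 175 and 3343 FPKM in immature libraries 1, 2 and 3, and of 321, 2621 and 1424 in mature libraries 1, 2 and 3, the order kept from here on. Immature library 2 and mature library 1 were the low ones in their groups, and the groups overlapped. The coding transcripts of Chd9, summed, stayed between 0.779 and 2.55 FPKM, so the processed transcript made up 99.2% or more of processed plus coding level in every library. It began 475 bases inside the nearest coding 5′ end and stopped 85429 bases short of the nearest coding 3′ end. No group difference passed the test (limma log2 difference 0.13, SE 1.17, adjusted p = 0.992).

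Cep85-207 was low in the same pair of libraries, and by more. Cep85 encodes a centrosomal protein. Its processed transcript (chr4:134164112-134187085, minus strand) was at 305, 6.53 and 229 FPKM in immature and at 5.21, 365 and 327 in mature libraries, with overlapping groups. The coding sum was 1.15 to 1.72 FPKM and showed no such drop. The transcript began 27 bases from a coding start and ended 34254 bases before the nearest coding 3′ end.

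Ccdc107-206 ran the other way. Ccdc107 encodes a coiled-coil protein, and this transcript (chr4:43492900-43494205, plus strand) starts 462 bases before the nearest coding start. It was at 55.5, 274 and 20.1 FPKM in immature and at 166, 25.5 and 77.8 in mature libraries, highest in immature library 2 and mature library 1. Its coding sum was between 0 and 3.13 FPKM. Of its span, 160 bases lie within the 275 bases of Rmrp, the RNA of the ribonuclease MRP complex. Rmrp had 0 transcripts listed under that name. The library kit named in the labels does not mark strand, so reads of the overlapping genes cannot be told apart, and the value of Ccdc107-206 is uncertain.

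Among the 10 most abundant, 4 had a higher mean level than the coding sum, and the last of these was Med13l-204, from a gene of the kinase module of Mediator. It stood at 151, 12.1 and 124 FPKM in immature and at 30.6, 77.5 and 12.4 in mature libraries, and its share of the gene was 39.5% to 87.5%. A share of the gene here is the transcript's level over that level plus the coding sum. Other processed transcripts of the gene are left out of it. Vmp1-206, from a gene of autophagosome formation, and Galnt11-205 came next, with means of 25.6 and 24.3 FPKM over coding sums of 6.87 and 2.46. For 47 of the 200 the mean level exceeded that of the coding sum. In 11 the processed transcript held over 50% in all 6 libraries. Besides Chd9-206, Cep85-207 and Ccdc107-206 these came from Galnt11, an O-glycosylation enzyme, Iqsec1, an exchange factor for Arf6, Cdk12, a kinase of RNA polymerase II, Sp3, a transcription factor, Taf13, a subunit of TFIID, and Tulp4, Tcp11l1 and E030030I06Rik. Cdk12-204 (chr11:98263502-98268011, plus strand) lay wholly past the last coding 3′ end of its gene, its own 3′ end 16447 bases beyond it, at 11.6, 14.5 and 42.5 FPKM in immature and 7.58, 12.4 and 12.8 in mature libraries.

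**Figure D2:**
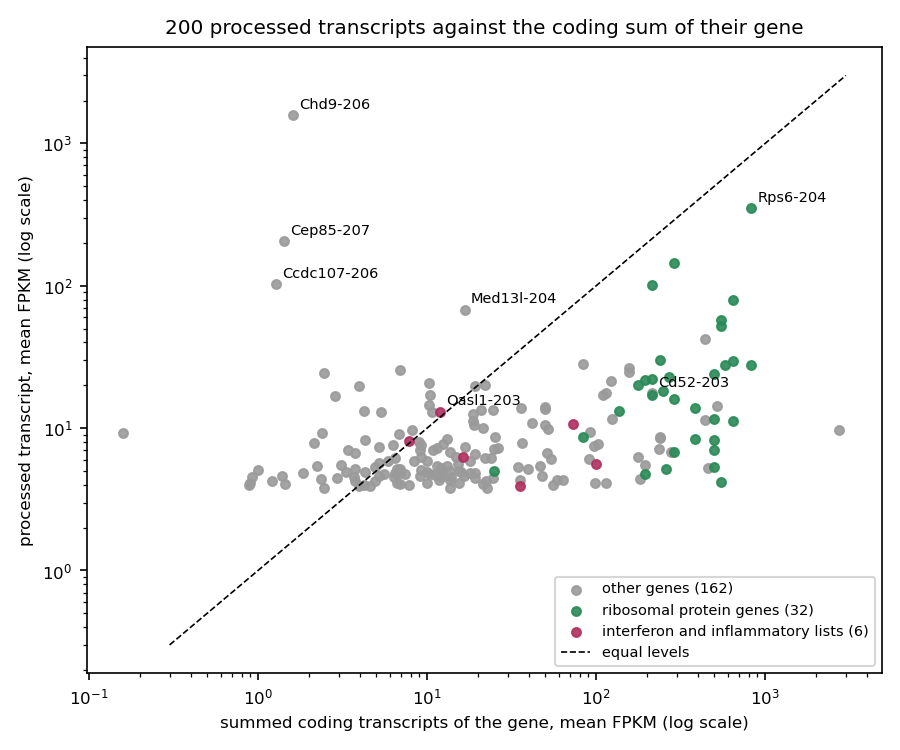
Mean FPKM over 6 libraries of each of the 200 processed transcripts against the summed coding transcripts of its gene, both on log axes, with the line of equal levels. In 47 the processed transcript lies above the line, none of them from a ribosomal protein gene, and Chd9-206 stands at 1572 FPKM over a coding sum that stayed between 0.779 and 2.55.

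The typical member was a minority product. The median share of processed in processed plus coding level was 19.0%, against 1.78% in the 3920 other processed transcripts of coding genes, a gap that the choice by level builds in. By their median over libraries, 68 members were under 10%, 91 between 10% and 50%, 34 between 50% and 90% and 7 at 90% or more. Per library, the median share was 20.8%, 22.1% and 14.3% in immature and 19.2%, 18.5% and 23.1% in mature libraries, a difference of 1.20 percentage points (2-sided exact permutation p = 0.8). That difference reversed to -1.17 without immature library 3, to -0.212 without mature library 3 and to -0.535 with all listed transcripts of the gene in the denominator.

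Processed levels were less even among libraries of a group than coding levels. The within-group SD of log2(FPKM + 1) had a median of 1.18 for the 200 and of 0.70 for their coding sums, and it was the larger of the pair in 151 of 200. The other 3920 had medians of 0.51 and 0.61, with the processed transcript the more variable in 1621. These are descriptions, since a choice by mean also takes in transcripts that are high in 1 library.

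Most of the 200 shared an end with a coding transcript. In 101 (50.5%) the 5′ end lay within 100 bases of an annotated coding 5′ end, and in 51 (25.5%) the 3′ end lay within 100 bases of a coding 3′ end, with 24 counted in both. Neither held for 72 (36.0%). Among the other 3920 the shares were 34.9%, 11.7% and 57.5%. A gene of a small RNA overlapped the span of 14 (7.00%), against 3.34% of the others, and 27 (13.5%) overlapped another gene in RefSeq, against 17.4%. Small nucleolar RNAs, which guide chemical modification of ribosomal RNA and often sit in introns of ribosomal protein genes, were the usual case: Snord32a, Snord33, Snord34 and Snord35a fell within Rpl13a-203, Snora21 within Rpl23-205 and Rpl23-204, Snora31 within Tpt1-204, and Snord14c and Snord14d within Hspa8-209. The values of these transcripts are uncertain for the same reason as that of Ccdc107-206.

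Ribosomal protein genes supplied the largest group, 32 transcripts of 19 genes. Their messengers are among the most abundant of any cell, and they begin at a run of pyrimidines through which the mTOR pathway controls their translation. Of the 32 processed transcripts, 14 began within 100 bases of a coding start. Promoter sequences came from RefSeq (GRCm38.p6), where 18 starts of these genes were matched. A run of at least 8 C or T bases that touches the 10 bases either side of the RefSeq start, read on the gene's strand, was present in 8 of 18 promoters (44.4%) and in 13.7% of all 32851 promoters. The 30 bases before and the 30 from the start on are printed for the 5 most abundant ribosomal protein members, with that run in capitals. The starts printed for Rps6, Rpl7a and Rpl13a hold one, and those printed for Rps24 and Rps7 do not. Another RefSeq start of Rps24, the nearest to Rps24-203, holds a run of 9 bases.
Rps6 (start of Rps6-204, chr4:86857338-86857397, minus strand): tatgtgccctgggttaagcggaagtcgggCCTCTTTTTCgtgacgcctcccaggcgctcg
Rpl7a (start of Rpl7a-203, chr2:26910777-26910836, plus strand): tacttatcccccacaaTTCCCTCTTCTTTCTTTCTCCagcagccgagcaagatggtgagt
Rpl13a (start of Rpl13a-203, chr7:45128716-45128775, minus strand): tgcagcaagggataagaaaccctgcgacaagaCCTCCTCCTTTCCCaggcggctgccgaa
Rps24 (start near Rps24-208, chr14:24490723-24490782, plus strand): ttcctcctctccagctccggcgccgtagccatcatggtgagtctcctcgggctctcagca
Rps7 (RefSeq start nearest to Rps7-207, chr12:28635924-28635983, minus strand): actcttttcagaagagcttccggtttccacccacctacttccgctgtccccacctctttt
The processed transcripts began 22 bases (Rps6-204), 10 bases (Rpl7a-203 and Rpl13a-203), 106 bases (Rps24-208) and 3563 bases (Rps7-207) after the RefSeq start. In Rps6 and Rpl7a the processed transcript thus starts past the run, and in Rpl13a within it. A match describes letters only and names no site of control.

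The 32 summed to 977, 830 and 2104 FPKM in immature libraries and to 718, 1622 and 823 in mature libraries. Immature library 3 and mature library 2 were the high ones, and the groups overlapped. Against their coding sums they held 13.5%, 23.3% and 13.4% in immature and 22.1%, 13.8% and 12.8% in mature libraries, highest in immature library 2 and mature library 1, where ribosomal protein genes as a whole were at 12.6% and 12% of the summed FPKM. The other 4 libraries had 23.8%, 33.7%, 19.7% and 13.3% there; the part of this in the shares was not tested. Of the 31 that passed the filter for testing (0.5 FPKM in at least 3 libraries), 0 passed the limma test in either direction, beside 0.0751% of all transcripts tested. An unadjusted p under 0.05 was reached by 1 on the higher and 1 on the lower side, beside 7.39% and 0.682% of all tested. Of the 32, 1 lay higher and 2 lay lower in every mature library, beside 13.1% and 1.39%. The median log2 difference of the 31 was -0.45, beside 0.31 for all 15972 transcripts tested. Coding sums of the 81 ribosomal protein genes gave 0 calls, beside 0.174% of all coding sums tested. At an unadjusted p under 0.05 there were 0, beside 10.0% higher and 0.204% lower of all.

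Rps6-204 led the group. Rps6 is the small-subunit protein phosphorylated by S6 kinase. The transcript (chr4:86854804-86857345, minus strand) was at 277, 181 and 732 FPKM in immature and 138, 621 and 168 in mature libraries, while the coding transcript was at 863, 51.0 and 1919 and at 105, 1318 and 681. The groups overlapped in both. Its share of the gene was 24.3%, 78.0% and 27.6% in immature and 56.8%, 32.0% and 19.8% in mature libraries, highest in immature library 2 and mature library 1, where the coding values were lowest.

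Rps24-208 kept a steadier share. It was at 140, 116 and 261 FPKM in immature and 85.4, 167 and 102 in mature libraries, 26.4% to 43.7% of its own level plus the coding sum. The gene's other members Rps24-209 and Rps24-203 ranged from 8.05 to 27.1 and from 2.63 to 13.1 FPKM. Rps24 encodes a small-subunit protein with several coding isoforms, of which 4 were listed.

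In Rpl7a, which encodes a large-subunit protein, 3 processed transcripts differed in the libraries where they were high. Rpl7a-203 was at 93.9, 74.4 and 204 FPKM in immature and 53.9, 78.7 and 101 in mature libraries. Rpl7a-204 was at 20.8 FPKM in immature library 1 and 112 in mature library 2, and at 0 in the other 4. Rpl7a-205 was at 4.0, 0.996 and 5.76 FPKM in immature and 73.2, 9.46 and 9.69 in mature libraries. The groups of Rpl7a-205 did not overlap, through a single high value in mature library 1, and the difference did not pass the test (adjusted p = 0.523). All 3 spans hold the same small RNA genes, and reads were divided between them by estimation. In Rpl11, with 5 members, the coding transcripts kept most of the level and the members 0.0901 to 49.8 FPKM.

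**Figure D3:**
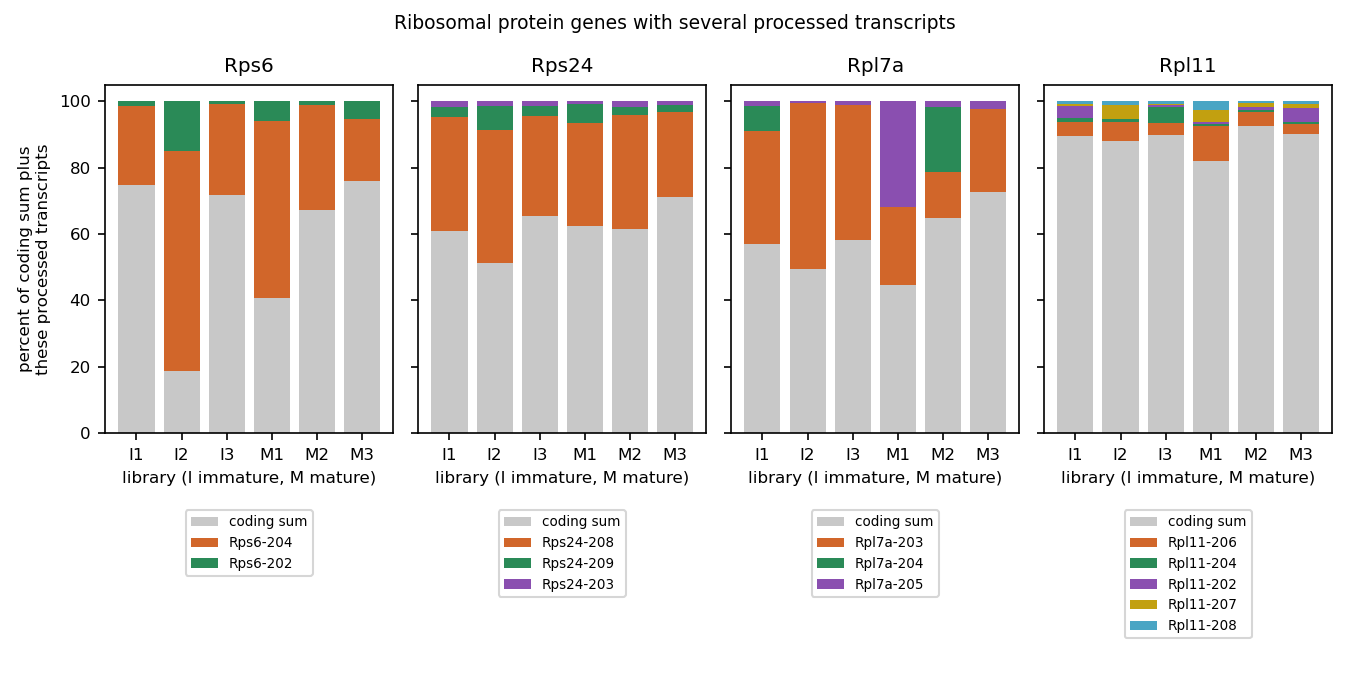
Percent of the coding sum plus the processed transcripts shown, for 4 ribosomal protein genes with several members, stacked by library (I immature, M mature). Rps6-204 takes 66.2% in immature library 2 and 53.3% in mature library 1, Rpl7a-205 takes 31.9% in mature library 1 only, and Rpl11 stays mostly coding.

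The test between groups covered 190 of the 200, and the other 10 were too often under 0.5 FPKM. Differences are given as mature minus immature in log2(FPKM + 1), a scale on which changes of low transcripts come out too small. Of the 190, 2 rose in mature exosomes at an adjusted p under 0.05 (limma, Benjamini-Hochberg over all transcripts tested) and 0 fell. Over all 15972 transcripts tested 0.0751% were called, 0.0626% up and 0.0125% down. At an unadjusted p under 0.05, 24 were higher and 7 lower (12.6% and 3.68%), beside 7.39% and 0.682% of all tested. In 25 of the 200 (12.5%) the 3 mature values all lay above the 3 immature ones, beside 13.1% of the transcripts tested, and in 8 (4.0%) all lay below, beside 1.39%. The median log2 difference of the 190 was 0.16, and that of all transcripts tested 0.31. Scaling the libraries by the median of ratios or by the upper quartile moved these medians to -0.21 and -0.25 for the 190, and to 0.03 and -0.01 for all tested.

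Cd52-203 was called, and its coding partner was not. Cd52 encodes a short surface glycoprotein, anchored by lipid, of lymphocytes and myeloid cells. The processed transcript was listed at 0 in all 3 immature libraries and had 29.2, 39.7 and 36.9 FPKM in mature libraries. The groups did not overlap, and the log2 difference was 5.17 (SE 0.48, adjusted p = 0.0117). The coding transcript was at 158, 285 and 126 FPKM in immature and 242, 194 and 271 in mature libraries, overlapping, with an adjusted p of 0.859. Set against the coding sum, the processed transcript rose by 4.78 on the log2 scale (SE 0.59, adjusted p = 0.0229).

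Cd52-203 (chr4:134082448-134095041, minus strand) has an unusual span. It starts 41 bases inside the coding start and runs 11088 bases past the coding 3′ end. Of its span, 10057 bases overlap the RefSeq span of Crybg2, a gene with 0 transcripts listed under that name. Reads from that gene cannot be told apart from Cd52-203 there. The transcript passed the filter through the mature libraries alone. Both calls were sensitive to single libraries. Without immature library 1, 2 or 3 the adjusted p of the transcript was 0.0976, 0.0503 and 0.0563, and without any 1 mature library too few libraries reached the filter for a test. The call against coding was lost without each immature library (adjusted p = 0.201, 0.0856 and 0.0565) and without mature library 2 or 3 (adjusted p = 0.202 and 0.218).

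Oasl1-203 was the other transcript that rose, and here the coding transcripts rose with it. Oasl1 is an interferon-induced protein of the oligoadenylate synthetase family, which in mouse holds back translation of Irf7. The processed transcript (chr5:114923435-114936067, plus strand) was listed at 0 in all 3 immature libraries and reached 28.2, 11.8 and 38.3 FPKM in mature libraries (log2 difference 4.62, SE 0.57, adjusted p = 0.0342). The coding sum was at 1.65, 1.86 and 0.311 FPKM in immature and 17.0, 16.4 and 34.3 in mature libraries (log2 difference 3.37, adjusted p = 0.0404). Neither pair of groups overlapped. Relative to coding the difference was 1.24 (adjusted p = 0.696). With 0.5 or 0.1 added to FPKM in place of 1, that difference was 1.82 or 3.63 (limma adjusted p = 0.745 and 0.705). The share of Oasl1-203 in its gene was 41.9% to 62.4% in mature libraries. Like Cd52-203 it passed the filter through the mature libraries alone, and without any 1 of them it could not be tested. It was not called under either scaling (adjusted p = 0.0921 and 0.1) or without immature library 1, 2 or 3 (adjusted p = 0.227, 0.142 and 0.135).

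**Figure D4:**
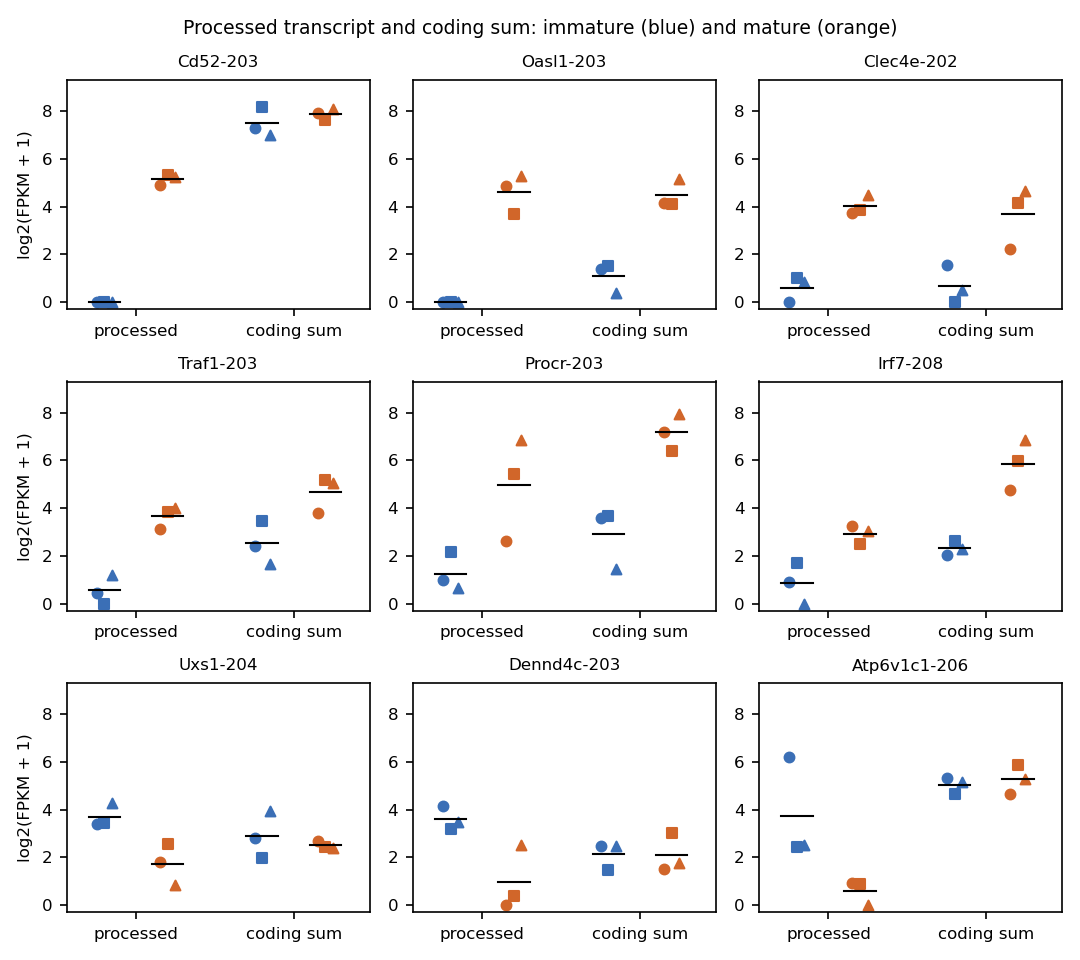
Level in log2(FPKM + 1) of 9 processed transcripts and, beside each, of the coding sum of its gene; 1 point per library (circle, square and triangle for libraries 1, 2 and 3), a bar at the group mean, immature blue and mature orange. Cd52-203 is at 0 in immature libraries while its coding sum overlaps between groups, Oasl1-203 and its coding sum both lie higher in all mature libraries, and the bottom 3 lie lower in all mature libraries as processed transcripts only.

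Other transcripts of inflammatory and interferon genes sat higher in every mature library without passing. Clec4e is Mincle, a receptor for mycobacterial and fungal glycolipids; Clec4e-202 was at 0, 0.993 and 0.809 FPKM in immature and 12.2, 13.4 and 21.2 in mature libraries (log2 difference 3.40, SE 0.54, adjusted p = 0.0827). Traf1 is an adaptor of TNF receptors; Traf1-203 was at 0.366, 0 and 1.34 FPKM and at 7.77, 13.3 and 15.0 (log2 difference 3.1, SE 0.56, adjusted p = 0.138). In both genes the coding sum also lay higher in every mature library. Il1rn-206, of the interleukin-1 receptor antagonist, was at 5.16, 1.03 and 5.31 FPKM and at 14.0, 13.6 and 25.2 (2.06, adjusted p = 0.407).

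The interferon-induced genes Bst2 and Irf7 gave weaker differences. Bst2 encodes tetherin, which holds budding virus at the cell surface, and its processed transcript was at 5.38, 0 and 0 FPKM in immature and 7.34, 7.59 and 13.2 in mature libraries (adjusted p = 0.435). Irf7 is the transcription factor that amplifies interferon production, and Irf7-208 was at 0.894, 2.29 and 0 FPKM and at 8.51, 4.73 and 7.17 (adjusted p = 0.390). The coding sum of Irf7 differed more, at 3.09, 5.22 and 3.86 against 25.7, 62.0 and 113 FPKM (adjusted p = 0.0546), and the relative log2 difference of Irf7-208 was -1.48 (adjusted p = 0.696). The interferon and the inflammatory lists each had 3 of the 200, and in each list 3 of 3 were higher in every mature library, beside 13.1% of all transcripts tested. The lists were chosen with earlier results of these data known, so these counts are a description. There was 1 call among the members of both lists, Oasl1-203. On the coding side 3 of 53 interferon-stimulated genes and 10 of 53 inflammatory genes rose, with 0 lower. In each list 43 of 53 had an unadjusted limma p under 0.05 on the higher side. Over all 9786 coding sums tested 0.174% rose, and 10.0% met that unadjusted threshold on the higher side.

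One promoter of an interferon gene holds repeats of the element that interferon factors bind. A pair of GAAA with any 2 bases between them, searched on both strands of the 300 bases from 250 before to 50 after the start, was found in 5 of 147 promoters of the members (3.40%) and in 3.44% of all 32851. Bst2 has 2 overlapping matches, in capitals in the stretch upstream of its start.
Bst2 (upstream of its processed transcript, chr8:71537562-71537627, minus strand): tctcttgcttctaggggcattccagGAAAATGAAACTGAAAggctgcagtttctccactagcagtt
A match describes letters only, and the share among the members was that of promoters at large.

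Beyond these lists, Procr-203, from the gene of the endothelial protein C receptor, was at 0.991, 3.45 and 0.564 FPKM in immature and 5.20, 42.2 and 116 in mature libraries. The groups did not overlap, and the difference of 3.71 (SE 0.99) did not pass (adjusted p = 0.338). Its coding sum went from 11.2, 11.9 and 1.76 to 146, 82.7 and 245 FPKM, at an adjusted p of 0.0508. Kmt5a-209, from the gene of the histone H4 lysine monomethyltransferase, was at 0, 1.79 and 0 FPKM and at 3.18, 18.2 and 13.9 (2.91, adjusted p = 0.321). Hivep3-210, from a zinc finger transcription factor gene, was at 0.491, 0.387 and 1.09 FPKM and at 5.55, 10.2 and 11.4 (2.57, adjusted p = 0.215). For Kmt5a and Hivep3 the coding sums overlapped between groups and the values relative to coding did not. The processed transcript of Tsc22d3, the glucocorticoid-induced leucine zipper GILZ, was at 0.340, 0 and 0.306 FPKM and at 0.731, 24.9 and 16.9 (2.95, adjusted p = 0.439), with the mature library that stood apart near the immature level.

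The 8 transcripts lower in every mature library had log2 differences from -3.11 to -1.13, and 0 passed the test. Their coding sums overlapped between groups in all 8. Atp6v1c1-206, from the C subunit of the vacuolar proton pump, was at 72.2, 4.40 and 4.74 FPKM in immature and 0.919, 0.85 and 0 in mature libraries (-3.11, SE 0.97, adjusted p = 0.427), and its mean rests on immature library 1. Atp6v0a1-208, from a membrane subunit of the same pump, was at 2.41, 17.4 and 1.97 FPKM and at 0.482, 1.67 and 0.854 (-1.56, adjusted p = 0.683), its high value in immature library 2. Both also lay lower in all mature libraries relative to coding.

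Dennd4c-203, from an exchange factor for Rab10, was at 16.7, 8.09 and 10.3 FPKM and at 0, 0.307 and 4.81 (-2.64, SE 0.73, adjusted p = 0.346), over a coding sum of 1.82 to 7.16 FPKM. Its share of the gene was 69.4% to 81.6% in immature libraries and 0%, 4.11% and 66.9% in mature libraries. Uxs1-204, from UDP-xylose synthase, was at 9.44, 9.92 and 18.1 FPKM and at 2.52, 4.95 and 0.776 (-1.96, SE 0.60, adjusted p = 0.417). Others lower in every mature library included Rps7-207, of a small-subunit ribosomal protein, Atp5g3-204 of subunit c of the mitochondrial ATP synthase, at 7.12, 31.8 and 2.89 and at 1.11, 1.16 and 2.31 FPKM, and Yipf3-205 of a Golgi membrane protein, at 1.23, 22.7 and 2.95 and at 0.472, 0.169 and 1.07 FPKM.

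**Figure D5:**
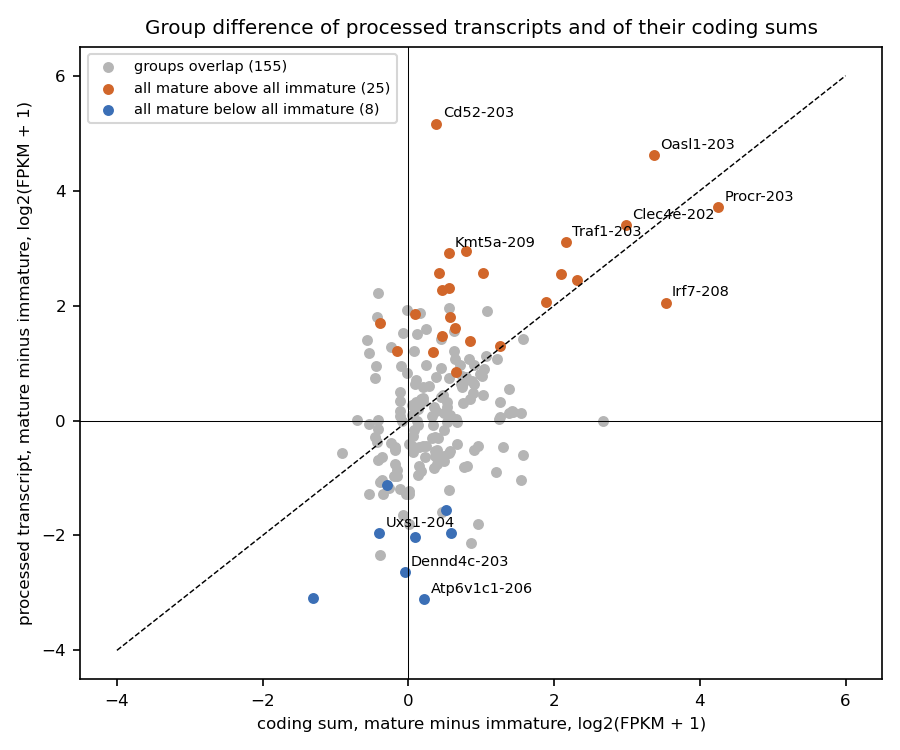
Difference between groups, mature minus immature in log2(FPKM + 1), of 188 processed transcripts tested together with the coding sum of their gene; the dashed line marks equal differences, orange the 25 and blue the 8 transcripts whose groups do not overlap. Cd52-203 lies at 5.17 over a coding difference of 0.38, Oasl1-203 at 4.62 over 3.37, Procr-203 at 3.71 over 4.26 and Clec4e-202 at 3.40 over 2.98.

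Across the 172 genes, 170 coding sums were tested and 1 rose, that of Oasl1, beside the 0.174% of all coding sums. At an unadjusted p under 0.05, 16 were higher (9.41%) and 0 lower, beside 10.0% and 0.204% of all. Groups lay apart for 27 of the 172 genes on the higher side (15.7%) and for 1 on the lower side, beside 17.6% and 0.623%. Their median log2 difference was 0.38, beside 0.39 for all coding sums. Of the 25 processed transcripts higher in every mature library, 9 came from genes whose coding sum was also higher in every mature library, and 16 from genes whose coding groups overlapped. The call of Oasl1 was lost without immature library 1 or 3, without any 1 mature library, with pseudocounts of 0.1 and 0.5, and under both scalings. Without both libraries that stood apart 6 coding sums were called, those of Irf7, Traf1, Procr, Clec4e, Oasl1 and Bst2. At an unadjusted p under 0.05 that setting had 41 of the 170, against 16 in the main fit. The share called over all coding sums was not counted for that setting, so the 6 have no background to be set against.

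Set against coding, that is log2(FPKM + 1) of the processed transcript minus that of the coding sum, all 200 could be tested and 1 rose, Cd52-203, beside 0.0252% of the 3974 tested. At an unadjusted p under 0.05, 14 were higher and 14 lower (7.00% each), beside 1.08% and 6.19%. The groups did not overlap in 8 higher and 17 lower ones (4.0% and 8.50%), beside 2.06% and 11.4% of the 3974. The median difference was -0.17, beside -0.31 for all. Cyb5r4-205, from a cytochrome b5 reductase gene, had the next greatest difference on the higher side, 4.39 (SE 1.16, adjusted p = 0.558). It was at 0.152, 0 and 0 FPKM in immature and 0.114, 30.3 and 21.3 in mature libraries, the first mature value within the immature range, over coding sums of 4.06 to 59.4 FPKM. It was called only without immature library 2 and mature library 1 together (adjusted p = 0.0374).

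On the lower side of that measure, among transcripts whose groups did not overlap, Atp6v1c1-206 came first, and next stood Rabgef1-209 (-2.76), from an exchange factor for Rab5, Dennd4c-203 (-2.58), the lower-ranked of the pair from Edf1 (-2.17), Atp6v0a1-208 (-2.07) and Wdfy1-211 (-1.95), with adjusted p-values of 0.592 to 0.660, so none was called. Hspa8-209 had -2.99, with overlapping groups (adjusted p = 0.680). Edf1, a transcriptional coactivator also known to act at collided ribosomes, is an example with the coding sum on the higher side: that transcript was at 9.29, 27.3 and 9.64 FPKM in immature and 18.6, 1.86 and 14.7 in mature libraries, while the coding sum was at 23.2, 26.8 and 23.7 and at 64.6, 72.0 and 89.1 (adjusted p = 0.282). Wdfy1-211, from a gene of endosomal Toll-like receptor signalling, was at 38.8, 11.4 and 49.3 FPKM and at 1.15, 19.9 and 3.27, and its share of the gene was 71.4% to 75.4% in immature and 21.1%, 68.3% and 22.9% in mature libraries.

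The remaining lists held few of the 200 and no call. Glycolysis had 5, led by Gapdh-208 at 23, 27.2 and 16.6 FPKM in immature and 93.4, 39.2 and 55.2 in mature libraries (1.39, SE 0.54, adjusted p = 0.543), without overlap, over a coding sum that did overlap. Histone and chromatin genes had 5, among them H3f3b-204, of the replacement histone H3.3, at 14.3, 25.5 and 6.04 and at 36.3, 30.0 and 36.1 FPKM (adjusted p = 0.631), and H2afy-204, of macroH2A1, at 12.2, 0 and 2.65 and at 13.4, 18 and 34.7 FPKM (adjusted p = 0.490). Nuclear genes of oxidative phosphorylation had 6, of which 4 could be tested. Actin cytoskeleton and splicing lists had 3 each, translation factors, iron and redox, and chaperones 2 each, and proteasome, lysosome and vesicle traffic 1 each, while antigen presentation and small nucleolar RNA host genes had 0. Glycolysis and the histone list each had 2 of 5 higher in every mature library, beside 13.1% of the transcripts tested, and oxidative phosphorylation had 1 of 6 lower in every mature library, beside 1.39%. As these lists too were chosen with earlier results of these data known, the counts are a description.

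Single libraries set several of these values. Ftl1-203, of the ferritin light chain, was at 51.5 FPKM in mature library 2 and at 0 to 2.87 in the others, over a coding sum of 1658 to 4626 FPKM. Hspa8-209, of the constitutive heat shock protein, was at 62.7 FPKM in immature library 1 and at 0 to 4.59 elsewhere. Ndufa5-204, of respiratory complex I, was at 23.3 FPKM in mature library 1, where the coding transcripts of the gene were listed at 0, and at most at 0.0489 in the others. The processed transcript of Taf13 kept its level while the coding transcript was listed at 0 in all 3 mature libraries and in immature library 2; it was at 1.58, 2.78 and 6.17 FPKM in immature and 3.02, 6.27 and 4.86 in mature libraries. The 131 members in no list included, at the top, Chd9-206, Cep85-207, Ccdc107-206 and Med13l-204.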

How the data were processed

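The authors deposited 1 FPKM value per transcript and library, per the file headers. StringTie, STAR 2.5.2b, HISAT2 2.0.5 and cutadapt appear in the submitters' processing notes, as does the human build hg19; the identifiers are mouse Ensembl ones, and 11310 of 11331 genes with a RefSeq position overlapped it on GRCm38, so positions were read on that build. FPKM was estimated per isoform, so values depend on how reads were divided among transcripts. Of the columns of values 0 were unused.

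Coding sums added the FPKM of a gene's protein-coding transcripts. Features at 0.5 FPKM or more in at least 3 of 6 libraries entered limma 3.58.1 (R 4.3.3; robust empirical Bayes, with a trend except for the relative values) on log2(FPKM + 1), adjusted by Benjamini-Hochberg over all features fitted. Per-library values had 2-sided exact permutation tests. Count models were not used, since FPKM are no counts. The procedure was tested on simulated data. Transcripts were named by level, call, size of the difference without overlap, share of the gene, list membership and several members per gene; Galnt11, Iqsec1-205, Cdk12-204, Sp3, Tulp4, Tcp11l1 and E030030I06Rik were named after their shares were seen. Members, the 16 gene lists and tests were chosen with earlier results of these data known. Alternatives were other pseudocounts, filters, scalings and comparators, a replicate block and leaving out libraries. Pairing by replicate number is not stated in the labels and was not used in the main tests. The values of 1 transcript among those tested are not reported here.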

Additional observations from a re-analysis of the deposited data

How the results depend on the processing

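The 2 calls among the processed transcripts stayed at 2 under pseudocounts of 0.1 and 0.5, with no filter, with a filter at 1 FPKM and without limma's trend and robust options. They became 1 (Cd52-203) under median-of-ratios and upper-quartile scaling, and 0 when any 1 library was left out. Without a mature library neither Cd52-203 nor Oasl1-203 reached the filter, so the 0 was fixed there without a test of either. The single coding call became 0 with pseudocounts of 0.1 and 0.5 and under both scalings, 3 with no filter and 0 to 2 when 1 library was left out. The single relative call became 0 with the most abundant coding transcript as comparator and 0 to 1 when 1 library was left out. Cd52 has 1 coding transcript listed, so under that comparator the values of Cd52-203 were the same. Its difference stayed at 4.78, and the adjusted p became 0.0684 through the other transcripts fitted. Without immature library 2 and mature library 1 together the calls were 0, 6 and 2. There too, neither Cd52-203 nor Oasl1-203 reached the filter of the transcript fit. Shares called over all features were counted in the main setting only. With a replicate block all 3 counts were 0, with Cd52-203 at an adjusted p of 0.109 and Oasl1-203 at 0.163. Same-numbered libraries correlated at -0.0197, -0.318 and -0.0525 in their deviations from the group mean. Immature library 2 with mature library 1 gave 0.287, and immature library 3 with mature library 2 gave 0.379. The numbers thus showed no sign of pairing, but low correlations cannot exclude it, as differences between single libraries can hide a shared source. The median difference of 0.16 became -0.21 and -0.25 under the scalings, and ranged from 0.049 to 0.47 when 1 library was left out. The median share of the gene, a difference of 1.20 points, ranged from -1.17 to 2.72 when 1 library was left out, and was -0.53 with all listed transcripts as denominator. The share of the table stayed lower in the mature group throughout, from -1.09 to -0.37 points. Among the named members' values, 2162 kept direction and call, 17 lost the call, 1 gained it and 2 moved. Most of these values had no call to lose, so the 2162 say little about how firm a call is. The 17 were all values of Cd52-203 and Oasl1-203. Settings under which a transcript did not reach the filter are not counted. The cause of these shifts was not tested. Omitting Chd9-206, members overlapping small RNA genes, or members with little coding signal was chosen after seeing the data.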
